A study of Mus musculus with 6 samples.

Results

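The genes described here are the core of the Hippo signalling pathway, its transcriptional effectors YAP, TAZ and the TEAD factors, and a set of their target genes, in mouse melanoma cells under cyclic stretch. The list names 35 genes by symbol: 26 pathway parts, from Yap1 to Vgll4, and 9 targets. Of these, 33 were in the deposited table of 14883 genes, and all 33 passed the filter on low counts, against 12377 of all genes. The RNA levels of the targets Ankrd1 and Nt5e were not analysed here.

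RNA was sequenced from B16F10luc2, a subline of the B16F10 melanoma line, which comes from a pigmented tumour of a C57BL/6 mouse. In the stretch group (3 libraries) the cells grew on elastic culture plates that were cyclically elongated for 24 h, 15 times a minute, by 15% and equally along both axes. In the static group (3 libraries) the same kind of plate stayed unstretched. All 6 libraries came from this 1 cell line in the same serum-containing medium. The labels name no drug, and no genetic change other than the luc2 in the name of the line. The labels do not say that the replicates were separate cultures, so the p-values below measure the spread between these libraries, which may be technical.

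Library totals were 36351400, 21611160 and 20494344 estimated counts in stretch replicates 1, 2 and 3, and 26372924, 19469286 and 30042222 in static replicates 1, 2 and 3. All 7 melanocyte markers examined were tested, with summed levels of 19863 to 20454 CPM (counts relative to the scaled total of the library) in stretched libraries and 22410 to 24790 CPM in static libraries. Mitf went against this sum, at a mean of 422 CPM in stretched cells and 325 CPM in static cells. The other 6 had lower means in stretched cells. Of these, Tyrp1, Dct and Pmel passed the edgeR test described below, and Sox10, Tyr and Mlana did not. The summed level of 5 fibroblast markers was 21.1 to 22.6 CPM in stretched libraries and 23.7 to 28.7 CPM in static libraries. Col1a1, Col3a1 and Pdgfrb had lower means in stretched cells. Col1a2 and Dcn went the other way, Col1a2 at a mean of 9.30 CPM in stretched cells and 7.27 CPM in static cells, with overlapping ranges. The 3 leukocyte markers analysed summed to 1.68 to 2.12 CPM in stretched libraries and 1.90 to 2.5 CPM in static libraries. Pecam1, the single endothelial marker analysed, had 0.336 to 0.589 CPM in stretched libraries and 0.266 to 0.387 CPM in static libraries. Lum, Ptprc, Cd3e, Cdh5 and Kdr of these lists were not analysed here. The part of these summed differences in the results below was not tested.

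In the Hippo pathway the kinases MST1 and MST2, encoded by Stk4 and Stk3, act with the scaffold SAV1 to activate the kinases LATS1 and LATS2, which work with MOB1. LATS kinases phosphorylate the coactivators YAP (Yap1) and TAZ (Wwtr1), which are then held in the cytoplasm or degraded. Unphosphorylated YAP and TAZ enter the nucleus and bind TEAD factors at their target genes, and in many cell types they respond to stretching, spreading and the stiffness of the substrate. Most of this control acts on proteins, by phosphorylation and location, which RNA levels do not measure.

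Under stretch the target genes were mostly lower, and so was TAZ, while Yap1 did not pass the test. Of 7 targets analysed, 5 fell under stretch (71.4%), none rose, and their median log2 fold change was −0.36. Of 26 pathway parts, 7 fell (26.9%) and 4 rose (15.4%), and their median was −0.03. In all tested genes 50.9% were called, 25.9% lower and 24.9% higher, and the median was 0.00. The share of lower pathway parts was thus near the background, and that of lower targets stood above it. A gene was called when its adjusted p was under 0.05 in edgeR's quasi-likelihood test over all 12377 tested genes, and a negative log2 fold change means a lower level in stretched than in static cells. With Lats2, Amotl2 and Ptpn14, pathway parts that are themselves known YAP targets, counted with the targets, 6 of 10 fell and none rose. In RNA from a whole culture, fewer cells that express a gene and less of its RNA per cell cannot be told apart.

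The differences of these genes were small. Members ranged from a log2 fold change of −0.64 for Myof to 0.23 for Taok1, and Myof was the only 1 of the 33 that differed by 1.5-fold or more. Against a minimum change of 1.2-fold (edgeR's glmTreat), 4 of 33 members were called, Myof, Wwtr1, Lats2 and Arhgef17, all lower. That is 12.1% of the members, against 12.9% of all tested genes. Stretched and static libraries did not overlap in CPM for 18 of 33 members, 13 of them lower (39.4%) and 5 higher under stretch (15.2%). Such separation was common in the whole table, at 58.5% of tested genes, 29.4% with lower and 29% with higher stretched values.

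**Figure D1:**
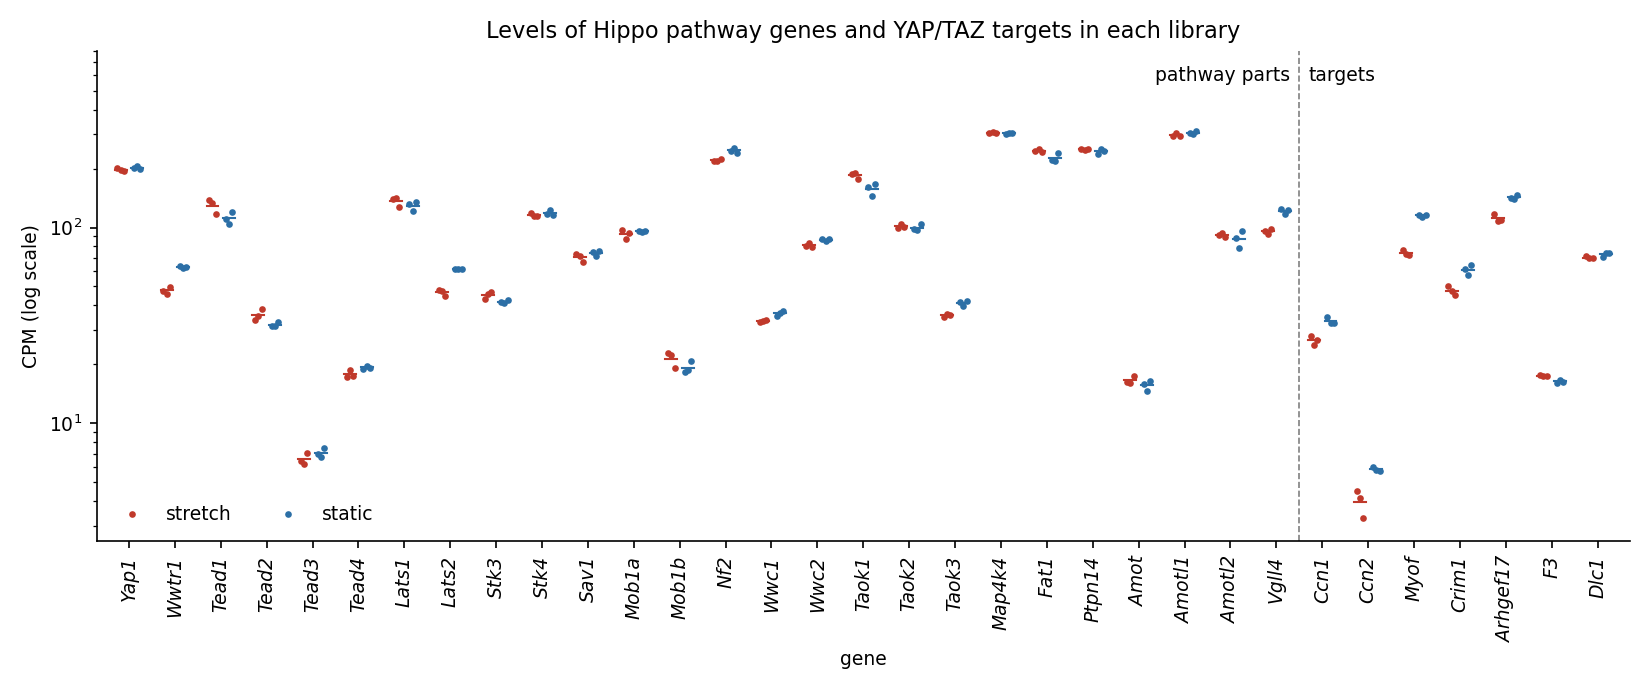
Levels of the 33 analysed genes in each library, in CPM on a log axis, with stretched libraries (red) left of static libraries (blue) for each gene and short lines at the group means. Levels span from 3.26 CPM for Ccn2 in stretch replicate 3 to 311 CPM for Amotl1 in static replicate 3. The 5 lower targets stand apart between groups, and so does F3, in the higher direction. Groups did not overlap for 58.5% of all tested genes.

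Of the 2 coactivators, TAZ mRNA fell and YAP mRNA did not pass the test. Wwtr1, which encodes TAZ (Entrez Gene 97064; chromosome 3, 57455644 to 57575910 in GRCm38), had 47.6, 46.0 and 49.9 CPM in the stretched libraries, against 63.3, 62.3 and 63.1 CPM in the static libraries. All 3 stretched libraries lay below all 3 static ones. It averaged 47.8 ± 1.95 CPM in stretched cells and 62.9 ± 0.556 CPM in static cells (SD, n = 3 each), a 1.32-fold lower level under stretch (log2 fold change −0.40, SE 0.042, adjusted p = 2.31e-06, edgeR). Yap1 (Entrez Gene 22601; chromosome 9, 7931999 to 8004638) had 201, 198 and 195 CPM in stretched libraries and 201, 207 and 199 CPM in static libraries. These ranges overlap, and the log2 fold change was −0.03 (SE 0.0348, adjusted p = 0.464). An offset for GC content and transcript length moved Yap1 to −0.09 (adjusted p = 0.0379) and Wwtr1 to −0.46 (adjusted p = 5.38e-07).

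Levels of different genes were set side by side per kilobase of the longest annotated transcript, which may not be the one expressed. On that scale Yap1 was the more abundant coactivator in every library. It stood at 37.5 ± 0.635 CPM per kb in stretched cells and 38.3 ± 0.764 CPM per kb in static cells, with Wwtr1 at 10.2 ± 0.414 CPM per kb in stretched cells and 13.4 ± 0.118 CPM per kb in static cells. The ratio of Yap1 to Wwtr1 was 3.76, 3.82 and 3.47 in stretched libraries and 2.83, 2.96 and 2.80 in static libraries. The ratio was thus higher in each stretched library than in any static one, and the share of TAZ in the sum of both was 21.4% ± 0.875 in stretched cells and 25.9% ± 0.535 in static cells (SD, n = 3 each). The ratio was not tested.

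Among the TEAD genes, the DNA-binding partners of YAP and TAZ, Tead1 and Tead2 rose slightly, and Tead3 and Tead4 did not pass the test. Tead1 had 138, 134 and 117 CPM in stretched libraries and 111, 104 and 121 CPM in static libraries, and a log2 fold change, by edgeR, of 0.21 (SE 0.0603, adjusted p = 0.00933). Stretch replicate 3 lay below static replicate 3, so the groups overlap. The call ended without stretch replicate 1 (log2 fold change 0.16, adjusted p = 0.072), without stretch replicate 2 (0.19, adjusted p = 0.0501) and once an offset for GC and length was used (0.11, adjusted p = 0.0751). Tead2 had 33.5, 35.2 and 38.1 CPM in stretched libraries and 31.3, 31.2 and 33.0 CPM in static libraries, with no overlap between groups (log2 fold change 0.15, SE 0.0553, adjusted p = 0.0326). Its call was also sensitive to single libraries: it ended without static replicate 1 or 2 or stretch replicate 2 or 3, with adjusted p-values of 0.0559 to 0.154, and in DESeq2. With the GC and length offset Tead2 stood at 0.27 (adjusted p = 0.00081).

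Tead4 had 17.3, 18.8 and 17.5 CPM in stretched libraries and 19.0, 19.7 and 19.2 CPM in static libraries (log2 fold change −0.12, adjusted p = 0.128). Every stretched value lay below every static one, but the difference did not pass the test. Tead3, the lowest of the family, had 6.40, 6.20 and 7.05 CPM in stretched libraries and 6.94, 6.76 and 7.52 CPM in static libraries, which overlap (log2 fold change −0.12, adjusted p = 0.295). Per kilobase the order in every library was Tead1, Tead2, Tead4, Tead3. Tead1 gave 41.6% and Tead2 33.7% of the TEAD sum in stretched cells, against 38.8% and 32.4% in static cells, and Tead4 gave 18.6% in stretched cells and 21.7% in static cells.

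**Figure D2:**
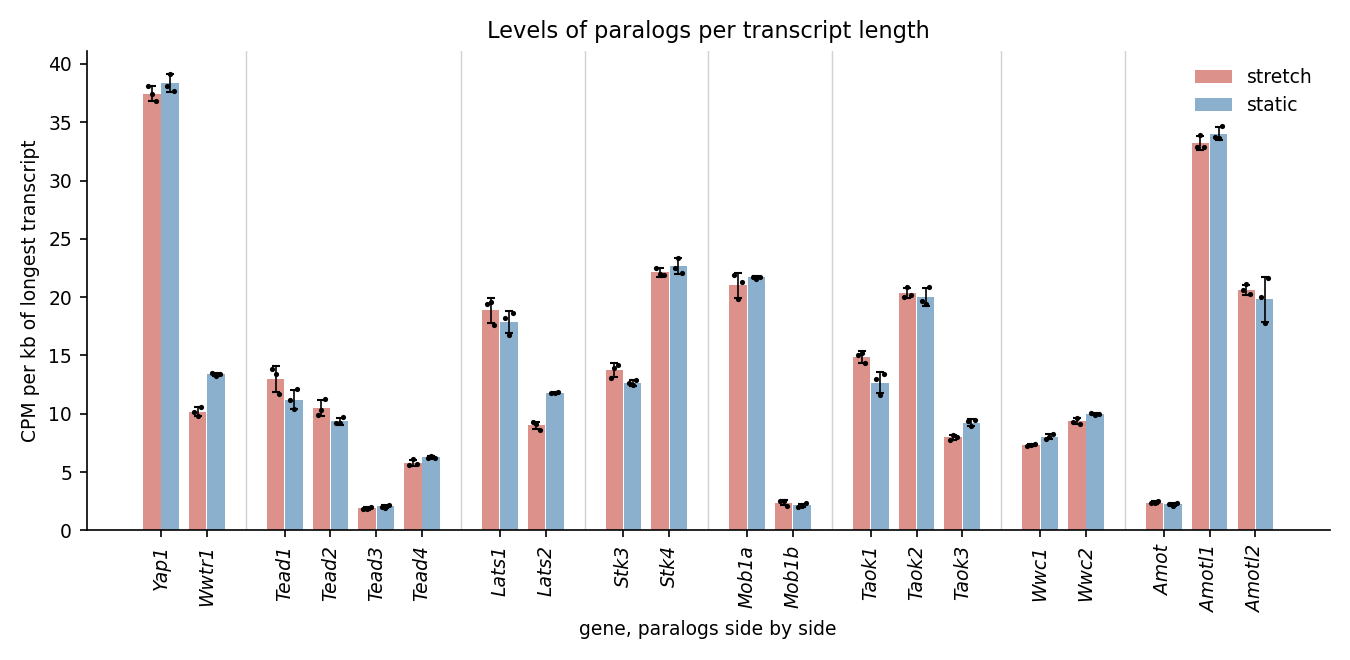
Mean level of paralogous pathway genes in CPM per kilobase of the longest transcript, stretched cells (red) left of static cells (blue), with SD (n = 3 each) and single libraries as points. Wwtr1 and Lats2 are lower under stretch than in static cells, while Yap1 and Lats1 lie close to their static levels.

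In the kinase core, Lats2 fell and the other 3 kinases did not pass the test. Lats2 (Entrez Gene 50523; chromosome 14, 57689662 to 57746212), which phosphorylates YAP and TAZ and is also a known YAP target gene, had 48.1, 47.3 and 44.8 CPM in stretched libraries, against 61.2, 61.3 and 61.5 CPM in static libraries. It averaged 46.7 ± 1.70 CPM in stretched cells and 61.4 ± 0.161 CPM in static cells (SD, n = 3 each), 1.31-fold lower under stretch (log2 fold change −0.39, SE 0.0416, adjusted p = 2.46e-06, edgeR). The groups did not overlap, and the call held under all 17 alternatives. Its paralog Lats1 had 140, 141 and 127 CPM in stretched libraries and 131, 121 and 134 CPM in static libraries. These overlap, and the log2 fold change of Lats1 was 0.08 (SE 0.048, adjusted p = 0.193). The ratio of Lats1 to Lats2 per kilobase was 2.10, 2.15 and 2.04 in stretched libraries and 1.54, 1.42 and 1.57 in static libraries, higher in every stretched library. The span of Lats1 overlaps Pcmt1, called higher at a log2 fold change of 0.12 (adjusted p = 0.0198).

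Stk3, which encodes MST2, had 43.1, 45.8 and 46.9 CPM in stretched libraries and 41.5, 41.0 and 42.5 CPM in static libraries, with a log2 fold change of 0.11 (adjusted p = 0.0566). Its groups did not overlap, yet it narrowly missed the threshold. Stk4, which encodes MST1, had 118, 115 and 114 CPM in stretched libraries and 118, 122 and 116 CPM in static libraries (log2 fold change −0.03, adjusted p = 0.5). Sav1, the scaffold that joins MST and LATS kinases, had a log2 fold change of −0.06 (adjusted p = 0.244), with 66.4 to 73.6 CPM in stretched libraries and 71.2 to 75.4 CPM in static libraries. The LATS cofactors Mob1a and Mob1b had log2 fold changes of −0.04 (adjusted p = 0.392) and 0.16 (adjusted p = 0.0935). Mob1a and Mob1b are close paralogs, so their estimated counts may share reads. None of these 5 genes was called in the fit given above. Mob1b was called higher without static replicate 3 (0.22, adjusted p = 0.0263), without stretch replicate 3 (0.225, adjusted p = 0.0219) and with library size alone (0.22, adjusted p = 0.036). Stk3 was called higher without stretch replicate 1 (0.15, adjusted p = 0.0331) and in 3 fits with other scaling or a stricter filter (0.12 to 0.17, adjusted p = 0.00812 to 0.0433). In turn Sav1 (−0.17, adjusted p = 0.00473) and Mob1a (−0.11, adjusted p = 0.0411) were called lower with the GC and length offset.

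All 4 genes that act upstream at the membrane were called, 3 of them lower, against 50.9% called and 25.9% lower among all tested genes. Nf2, which encodes merlin, a membrane-linked tumour suppressor that brings LATS kinases to the plasma membrane, had 219, 218 and 225 CPM in stretched libraries and 247, 256 and 241 CPM in static libraries. All stretched values lay below the static ones, and the level was 1.12-fold lower (log2 fold change −0.17, SE 0.0359, adjusted p = 0.00132, edgeR). Under the offset for GC and length Nf2 stood at −0.09 (adjusted p = 0.0362), and its call ended when the replicate number was added to that offset as a block (adjusted p = 0.0613). Wwc1, which encodes the merlin partner KIBRA, had 32.9, 33.2 and 33.5 CPM in stretched libraries and 35.4, 36.5 and 37.4 CPM in static libraries (log2 fold change −0.14, adjusted p = 0.0247). Its paralog Wwc2 had 80.9, 83.4 and 79.1 CPM in stretched libraries and 87.2, 85.5 and 86.9 CPM in static libraries (log2 fold change −0.09, adjusted p = 0.0479). Both WWC genes were separated between groups but lay near the threshold. Wwc1 lost its call without static replicate 3 or stretch replicate 1 or 2 (adjusted p = 0.0619 to 0.0941), and under the offset for GC and length (−0.03, adjusted p = 0.611). Wwc2 lost it without static replicate 1 or 3 or stretch replicate 1 or 3 (adjusted p = 0.0727 to 0.152). Both calls also ended in DESeq2 (adjusted p = 0.092 for Wwc1 and 0.118 for Wwc2). They ended with library size alone as well (adjusted p = 0.199 for Wwc1 and 0.49 for Wwc2, edgeR). Of 17 alternatives, Wwc1 kept its call in 9 and Wwc2 in 6.

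Fat1, an atypical cadherin upstream of the pathway, was the called gene of this group that rose. It had 245, 250 and 244 CPM in stretched libraries and 222, 219 and 240 CPM in static libraries (log2 fold change 0.12, SE 0.0397, adjusted p = 0.023, edgeR). The lowest stretched value, 244 CPM, lay just above the highest static value, 240 CPM. The call ended without static replicate 1 or any 1 of the 3 stretched libraries (adjusted p = 0.0503 to 0.107), and under the offset for GC and length (0.05, adjusted p = 0.253).

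The TAO kinases, which can phosphorylate MST kinases, moved in different directions. Taok1 had 187, 189 and 178 CPM in stretched libraries and 161, 144 and 167 CPM in static libraries, and rose 1.17-fold (log2 fold change 0.23, SE 0.0482, adjusted p = 0.00116, edgeR). Taok3 had 34.7, 36.4 and 35.8 CPM in stretched libraries and 41.8, 39.9 and 42.1 CPM in static libraries, and fell 1.16-fold (log2 fold change −0.22, SE 0.046, adjusted p = 0.00115). Neither gene overlapped between groups, and the ratio of Taok1 to Taok3 per kilobase was 1.87 ± 0.0771 in stretched cells and 1.37 ± 0.0619 in static cells (SD, n = 3 each). The Taok1 difference was near 0 under that offset (0.03, adjusted p = 0.605), while that of Taok3 was −0.17 (adjusted p = 0.0065). Taok2 had a log2 fold change of 0.02 (adjusted p = 0.649), and the offset moved it to 0.12, called higher (adjusted p = 0.0175). Map4k4, a kinase that can act on LATS in parallel to MST, had one of 0.01 (adjusted p = 0.845). Map4k4 varied little, at 302, 307 and 304 CPM in stretched libraries and 300, 303 and 304 CPM in static libraries.

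Of the 5 genes whose products bind and restrain YAP or TEAD, Vgll4 fell and the others did not pass the test. Vgll4 (Entrez Gene 232334; chromosome 6, 114860621 to 114970007) competes with YAP and TAZ for TEAD factors. It had 95.6, 92.6 and 98.4 CPM in stretched libraries and 124, 117 and 123 CPM in static libraries, with all stretched values lower. The means were 95.5 ± 2.89 CPM in stretched cells and 121 ± 4.01 CPM in static cells (SD, n = 3 each), 1.27-fold lower under stretch (log2 fold change −0.34, SE 0.0393, adjusted p = 4.64e-06, edgeR). The angiomotins, which hold YAP at cell junctions and on actin filaments, had log2 fold changes of 0.07 for Amot, −0.04 for Amotl1 and 0.05 for Amotl2, with adjusted p-values of 0.404 to 0.441. For Amotl2 the static libraries spread from 78.5 to 95.9 CPM and enclosed the stretched range of 89.7 to 93.5 CPM. Amotl2 was called higher under the GC and length offset (0.16, adjusted p = 0.0234) and without static replicate 3 (0.12, adjusted p = 0.0438). Ptpn14, a phosphatase that binds YAP, had 253, 248 and 251 CPM in stretched libraries and 238, 251 and 245 CPM in static libraries (log2 fold change 0.03, adjusted p = 0.430).

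**Figure D3:**
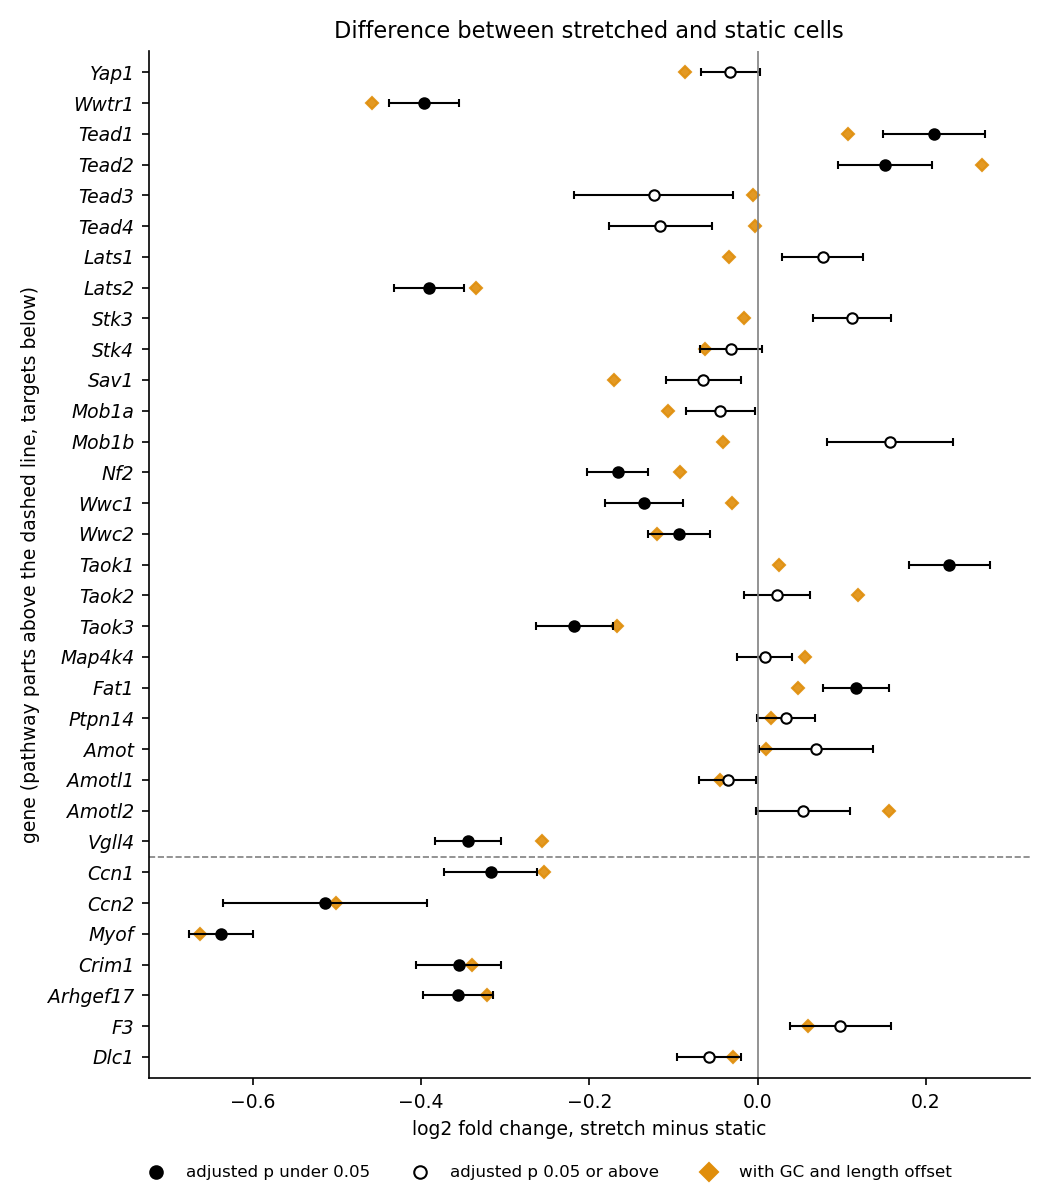
Log2 fold change of each gene, stretched minus static, with SE bars; filled circles passed the test and open circles did not, and diamonds give the value with an offset for GC content and transcript length. The 5 called targets lie from −0.64 to −0.32, and the diamonds of Taok1, Tead1, Fat1 and Wwc1 lie closer to 0 than their circles.

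The largest differences among the members were those of the targets Myof and Ccn2, and Wwtr1 and Lats2 came next. Myof (Entrez Gene 226101; chromosome 19, 37899036 to 38043577), which encodes the membrane repair protein myoferlin, had 76.7, 72.9 and 72.2 CPM in stretched libraries and 115, 114 and 116 CPM in static libraries. It fell to 73.9 ± 2.45 CPM in stretched cells, against 115 ± 1.45 CPM in static cells (SD, n = 3 each), 1.56-fold lower (log2 fold change −0.64, SE 0.038, adjusted p = 7.37e-09, edgeR). The groups stood well apart. Ccn2, also known as connective tissue growth factor (Entrez Gene 14219; chromosome 10, 24595442 to 24598683), had 4.52, 4.17 and 3.26 CPM in stretched libraries and 5.97, 5.75 and 5.70 CPM in static libraries. Ccn2 was the least abundant member, and its log2 fold change of −0.51 had the widest error (SE 0.121, adjusted p = 0.00254). Ccn1, also known as Cyr61 (Entrez Gene 16007; chromosome 3, 145646971 to 145649985), had 27.9, 25.2 and 26.5 CPM in stretched libraries and 34.9, 32.4 and 32.4 CPM in static libraries (log2 fold change −0.32, SE 0.0557, adjusted p = 0.000249). CCN1 and CCN2 are secreted matricellular proteins, and both genes were lower in all 3 stretched libraries than in any static one.

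Crim1 (Entrez Gene 50766; chromosome 17, 78200233 to 78376592), which encodes a membrane protein that binds bone morphogenetic proteins, had 50.3, 47.2 and 45.3 CPM in stretched libraries and 61.4, 57.5 and 64.1 CPM in static libraries. Its log2 fold change was −0.36 (SE 0.0506, adjusted p = 3.96e-05, edgeR). The span of Crim1 overlaps that of Fez2, which had 17.9 CPM in stretched cells and 19.9 CPM in static cells on average and did not pass the test (adjusted p = 0.111). Arhgef17 (Entrez Gene 207212; chromosome 7, 100869746 to 100932161), a guanine nucleotide exchange factor, had 117, 108 and 109 CPM in stretched libraries and 142, 139 and 147 CPM in static libraries (log2 fold change −0.36, SE 0.0415, adjusted p = 5.81e-06). Both genes showed no overlap between groups and differed 1.28-fold. F3, which encodes tissue factor, the initiator of coagulation, had 17.6, 17.3 and 17.5 CPM in stretched libraries and 16.1, 16.7 and 16.3 CPM in static libraries, with a log2 fold change of 0.10 (adjusted p = 0.187). All its stretched values were higher, but the difference did not pass the test. Dlc1, a tumour suppressor gene, overlapped between groups and had a log2 fold change of −0.06 (adjusted p = 0.222).

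The 5 lower targets kept their call in each of the 6 fits that left out 1 library and with the GC and length offset, where they ranged from −0.66 for Myof to −0.25 for Ccn1. In the glmTreat test against 1.2-fold, Ccn1 (adjusted p = 0.287), Crim1 (adjusted p = 0.0833) and Ccn2 (adjusted p = 0.0575) were not called.

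**Figure D4:**
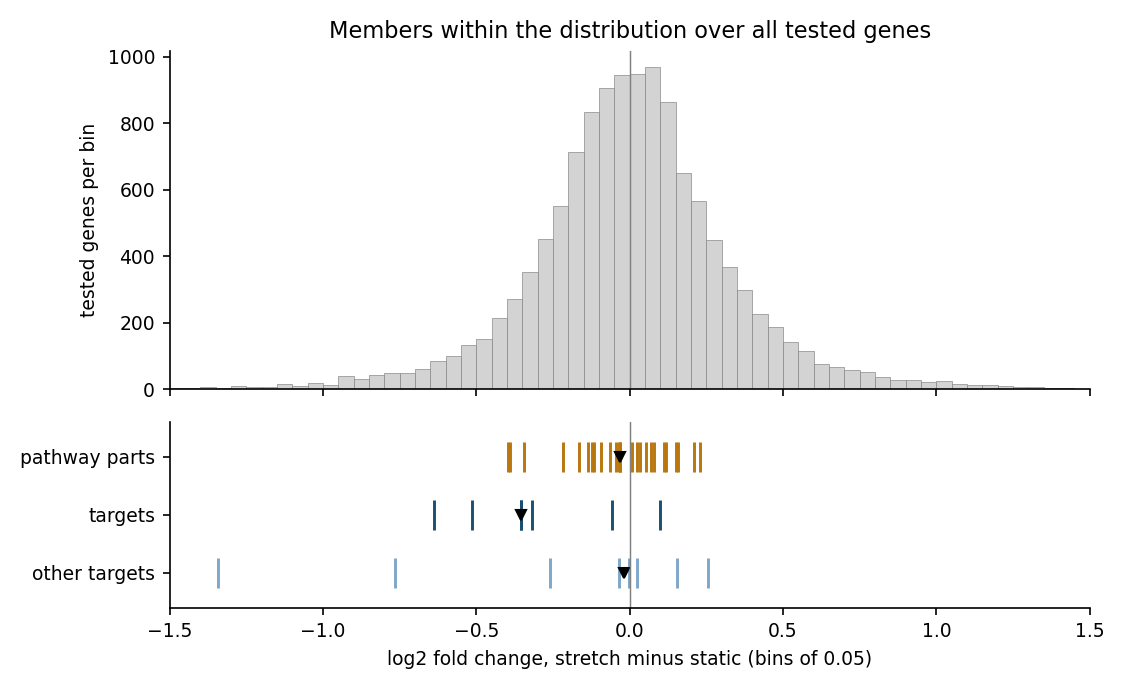
Histogram of the log2 fold change, stretched minus static, of all tested genes in bins of 0.05 (top), with 1 tick for each pathway part, target and further target gene, and triangles at each list's median (bottom); tested genes beyond 1.5 on either side are not drawn. Pathway parts centre near 0 (median −0.03), while 5 of 7 targets lie left of −0.3 (median −0.36).

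TEAD factors bind the M-CAT core CATTCC, which reads GGAATG on the other strand. The core was looked for on both strands in the RefSeq promoter windows of GRCm38.p6, from 250 bases before to 50 bases after each start. Windows were given for 28 of the 35 genes, and those of Ccn2, Arhgef17, Dlc1, Tead1, Tead4, Stk3 and Map4k4 were not analysed here. The upstream sequences of Ccn1 and Crim1 are shown because both are lower targets with a match, and a short stretch around the match is shown for Wwtr1, Lats2, Vgll4 and Wwc2, the lower pathway parts with one, and for Fat1, the higher gene with one. All read 5′ to 3′ on the gene's strand, and capitals mark the core. The Ccn1 stretch is chr3:145649986-145650235 (minus strand) and that of Crim1 is chr17:78199998-78200247 (plus strand). The short stretches are chr3:57576011-57576076 (minus) for Wwtr1, chr14:57746114-57746149 (minus) for Lats2, chr6:114969250-114969315 (minus) for Vgll4, chr8:47990603-47990668 (minus) for Wwc2 and chr8:44950076-44950141 (plus) for Fat1.
Ccn1: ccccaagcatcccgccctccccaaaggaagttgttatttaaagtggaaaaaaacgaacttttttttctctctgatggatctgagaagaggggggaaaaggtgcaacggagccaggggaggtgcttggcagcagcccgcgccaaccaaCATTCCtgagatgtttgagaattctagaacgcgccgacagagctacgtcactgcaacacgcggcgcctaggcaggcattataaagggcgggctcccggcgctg
Crim1: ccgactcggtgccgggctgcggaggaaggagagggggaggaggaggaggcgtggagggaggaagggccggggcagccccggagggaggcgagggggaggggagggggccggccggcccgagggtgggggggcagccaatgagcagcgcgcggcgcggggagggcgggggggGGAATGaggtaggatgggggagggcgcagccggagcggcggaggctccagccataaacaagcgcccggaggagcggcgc
Wwtr1: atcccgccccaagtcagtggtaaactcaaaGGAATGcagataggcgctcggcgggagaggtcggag
Lats2: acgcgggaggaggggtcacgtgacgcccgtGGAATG
Vgll4: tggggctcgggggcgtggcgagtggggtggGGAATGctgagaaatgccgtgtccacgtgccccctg
Wwc2: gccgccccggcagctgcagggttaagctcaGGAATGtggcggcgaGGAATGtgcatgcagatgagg
Fat1: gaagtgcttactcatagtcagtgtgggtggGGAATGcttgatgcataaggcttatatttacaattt
The core lay 103 bases before the start of Ccn1 and 79 bases before that of Crim1. It lay 170 or 136 bases before the start of Wwtr1, depending on which of its annotated starts is used, and 82 bases before that of Vgll4. Wwc2 held 3 matches, 203, 94 and 79 bases before its start, of which the stretch above shows the nearer pair. In Lats2 the match began at base 5 of the transcript, in 1 of its windows. Of the other lower genes with a window, Myof, Nf2, Wwc1 and Taok3 held no match. Tead3, Yap1, Amotl2, Ptpn14, Sav1 and Mob1a held at least 1 match but were not called. Ankrd1, whose RNA level was not analysed, held 2 matches, 123 and 210 bases before its start, and Nt5e held none.

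Of the 28 genes with a window, Ankrd1 and Nt5e among them, 14 held the core in at least 1 of their windows (50%). The share was 13.98% of the tested genes with a window. Among the members the share was 60% of 10 called lower, 33.3% of 3 called higher and 46.2% of 13 not called, so genes with a match were found on every side of the test. In all tested genes 15.3% of those called lower and 12.6% of those called higher held it. Member windows were also richer in G and C, with a median of 67.7% against 60.7% for windows of tested genes. A match is only a string of letters, and binding at these sites was not measured.

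The wider target set moved less as a whole. Of 11 further genes from a signature of 22 human YAP/TAZ target genes, 8 were tested, 2 fell and none rose. That is 25% lower, near the 25.9% of all tested genes, and their median log2 fold change was −0.02. Gadd45a, a stress gene that is also a known target of p53 and ATF4, had 6.85, 7.38 and 7.39 CPM in stretched libraries and 19.2, 17.1 and 18.1 CPM in static libraries. It was 2.54-fold lower under stretch (log2 fold change −1.34, SE 0.0776, adjusted p = 5.10e-09, edgeR). Axl, a receptor tyrosine kinase, had 29.3, 27.3 and 27.5 CPM in stretched libraries and 33.4, 34.4 and 33.5 CPM in static libraries (log2 fold change −0.26, SE 0.0501, adjusted p = 0.000532). Both were lower in every stretched library. Ccdc80 had a log2 fold change of −0.77 and an adjusted p of 0.0673, and Fjx1 (0.25), Rbms3 (0.16), Asap1 (−0.03), Dock5 (0.02) and Tgfb2 (−0.00) had adjusted p-values of 0.125 to 0.981. Foxf2 and Nuak2 were removed by the count filter, and Igfbp3 was not analysed here. Of the 17 tested genes in the whole signature, 8 fell and none rose (47.1% lower, against the background of 25.9%). These 8 include Myof, Ccn1, Ccn2, Crim1, Arhgef17 and Lats2, already given above.

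Among 59 tested genes around the core pathway, 19 fell and 11 rose, and the median log2 fold change was −0.01. That is 32.2% lower and 18.6% higher, against 25.9% and 24.9% of all tested genes. Of 15 polarity and protocadherin genes, 5 fell and 2 rose. Pard3, a junctional polarity scaffold, was among those that fell (log2 fold change −0.37, adjusted p = 1.05e-05), and Prkci, an atypical protein kinase C, among those that rose (0.15, adjusted p = 0.00347). Of 15 related kinases and RAP2 GTPases, 4 fell and 4 rose, with Mark4 at −0.35 (adjusted p = 6.11e-05) and Mink1 at 0.17 (adjusted p = 0.00446). Under the offset for GC and length Mark4 moved to −0.20, Mink1 to 0.28 and Prkci to 0.10, all still called. Among 11 genes of the STRIPAK phosphatase complex, which counteracts MST kinases, Ppp2r1a fell (−0.18, adjusted p = 0.00271) and no other passed the test. The Ppp2r1a call ended under the offset for GC and length (−0.10, adjusted p = 0.0559).

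All 6 tested genes of the RASSF and Ajuba families were called, 4 lower and 2 higher, against 50.9% of all tested genes called. Ajuba, a LIM protein that can inhibit LATS kinases, had 67.8, 60.2 and 65.2 CPM in stretched libraries and 78.5, 73.9 and 79.2 CPM in static libraries (log2 fold change −0.26, adjusted p = 0.000326, edgeR), and the GC and length offset moved it to −0.14 (adjusted p = 0.0118). Rassf3 had 115, 115 and 115 CPM in stretched libraries and 98.1, 102 and 97.7 CPM in static libraries (log2 fold change 0.22, adjusted p = 0.000128). Neither gene overlapped between groups. Of 11 genes for the degradation or cytoplasmic retention of YAP and TAZ, 4 fell and 3 rose. Csnk1e, a casein kinase that marks phosphorylated YAP for degradation, rose to 93.6, 94.4 and 94.2 CPM in stretched libraries, against 70.5, 65.5 and 74.8 CPM in static libraries (log2 fold change 0.42, adjusted p = 2.79e-06). Sfn, which encodes the phosphoprotein-binding 14-3-3 sigma and is a known p53 target, had 3.12, 2.35 and 2.35 CPM in stretched libraries and 5.00, 6.17 and 5.64 CPM in static libraries, 2.07-fold lower under stretch (adjusted p = 2.05e-05). Vgll3, a TEAD cofactor related to Vgll4, had 134, 134 and 128 CPM in stretched libraries and 170, 161 and 165 CPM in static libraries (log2 fold change −0.32, adjusted p = 5.14e-06).

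Per kilobase, the most abundant members in stretched cells were Map4k4 at 52.6, Nf2 at 46.8, Vgll4 at 43.5 and Yap1 at 37.5 CPM per kb. In static cells Vgll4 led at 55.1, followed by Nf2 at 52.5, Map4k4 at 52.3 and Yap1 at 38.3 CPM per kb. In stretched cells these 4 genes did not overlap between neighbours, while in static cells the range of Nf2 overlapped those of Vgll4 and Map4k4. The order rests on the longest annotated transcript of each gene. The least abundant in stretched cells were Ccn2 at 1.60, Tead3 at 1.90, Amot at 2.38 and Mob1b at 2.39 CPM per kb. In static cells Tead3 was at 2.05, Mob1b at 2.15, Amot at 2.25 and Ccn2 at 2.33 CPM per kb. Stk4 exceeded Stk3 in both groups, at 22.1 against 13.7 CPM per kb in stretched cells and 22.7 against 12.6 CPM per kb in static cells. Mob1a exceeded Mob1b more widely, at 21.0 against 2.39 CPM per kb in stretched cells and 21.7 against 2.15 CPM per kb in static cells. Among the targets Ccn1 was the highest in both groups, at 13.1 CPM per kb in stretched cells and 16.4 CPM per kb in static cells. Myof had 10.4 CPM per kb in stretched cells and 16.2 CPM per kb in static cells, where its range overlapped that of Ccn1.

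The spread among static libraries touched some of these genes. In 16 of 33 members (48.5%) static replicate 2 was the lowest and static replicate 3 the highest of the static libraries, against 23.7% of tested genes. All 4 members called higher (Tead1, Tead2, Taok1 and Fat1) had this order, and 4 of the 12 called lower had it (Taok3, Myof, Crim1 and Arhgef17). How common this order is among all genes called higher or lower was not counted, so these member counts have no matching background. Mki67, a proliferation gene, had 834, 847 and 859 CPM in stretched libraries, against 299, 242 and 428 CPM in static libraries, in the same order, and its part in the differences above was not tested. Without static replicate 2, Taok1 stood at 0.17 (adjusted p = 0.000822), Tead1 at 0.16 (adjusted p = 0.0186) and Fat1 at 0.09 (adjusted p = 0.048), still called, and Tead2 at 0.14 (adjusted p = 0.0559).

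GC content and transcript length differed between the called genes. The median GC content of the longest transcript was 48.9% for the 4 members called higher and 51.6% for the 12 called lower, and the median length was 11.2 kb for the 4 higher and 4.71 kb for the 12 lower. The lengths of the 4 higher members ranged from 3.40 to 14.8 kb. The 17 members not called had medians of 46.8% GC and 5.23 kb. In all tested genes the median GC content was 46.6% for those called higher and 52.8% for those called lower. Their median lengths lay closer together, at 3.73 kb for those called higher and 3.25 kb for those called lower. With an offset for both properties 3 of 26 pathway parts were called higher and 9 lower, and 5 targets lower. In that fit 2950 of all 12377 tested genes were called higher and 3097 lower. The 3 higher parts were then Tead2, Taok2 and Amotl2, while Tead1, Taok1 and Fat1 lost their call. The number of higher parts was the least stable count: it was 4 with TMM scaling, 8 with scaling by library size alone, 1 without stretch replicate 2, 2 without static replicate 1, and 6 without static replicate 3.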

How the data were processed

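Expression was measured by RNA sequencing in 3 stretched and 3 static libraries, grouped by the condition in the labels. Values in the deposited table are the authors' unscaled estimated counts, 1 whole number per gene and library. Salmon 1.4.0, mm10 and GRCm38 are listed in the submitters' processing notes, with no role given. The index, the summing of transcripts to genes, the rounding and the strand of the library were not stated in the sources used. Reads of overlapping genes therefore cannot be assigned by strand, and Salmon divides reads between paralogs by a model. The lowest total of a gene over the 6 libraries was 10. All columns of per-sample values were used.

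Entrez Gene numbers were matched to symbols and positions in the RefSeq table of GRCm38.p6, for 14875 of 14883 genes; the other 8 stayed in the library sizes and tests. In edgeR 4.0.16 (R 4.3.3), filterByExpr with a minimum count of 10 kept 12377 genes and dropped 2506. TMM factors were 0.966 to 1.02, and the quasi-likelihood fit had the group as its single term, with 4 residual degrees of freedom and a biological coefficient of variation of 3.60%. Tests were two-sided with Benjamini-Hochberg adjustment over all tested genes. CPM uses TMM-scaled library sizes, and CPM per kb divides by the longest GENCODE M21 transcript. Library totals from 19469286 to 36351400 set the precision. The procedure was tested on simulated counts.

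Alternatives were other scalings and filters, DESeq2 1.42.0, voom in limma 3.58.1, glmTreat against 1.2-fold, an offset from natural splines (5 degrees of freedom each) of GC content and log2 length (12281 genes), the replicate number as a block, and each library left out. The members, gene lists, alternatives and tests were chosen with earlier results of these data known. Every member is named. From the 72 listed genes around the pathway the text names, in each role group, the called gene of lowest p in each direction, and from the further targets every tested gene; Mki67 is named for the static spread.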

Additional observations from a re-analysis of the deposited data

How the results depend on the processing

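Wwtr1, Lats2, Myof and Arhgef17 kept their call under all 17 alternatives, and Vgll4, Taok3, Ccn1, Ccn2 and Crim1 under all but glmTreat. Against 1.2-fold, glmTreat called 1592 genes, 0 pathway parts higher and 2 lower, and 2 targets lower. Scaling by library size alone called 8 parts and 1 target higher, and moved the share of higher genes among all calls to 63.2%, against 49.0% with TMM. Leaving out 1 library in turn gave 5153 to 6331 called genes, 1 to 6 parts higher, 5 to 7 parts lower, 0 targets higher and 5 targets lower; with 1 library left out, 2 libraries stand for a group. Tead1, Tead2, Fat1, Wwc1 and Wwc2 lost their call in some of these fits.

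With the replicate number as a block, 5967 genes were called, with 4 parts higher, 6 lower and 5 targets lower. The labels do not say that numbers mark a shared culture. The deviations of same-numbered libraries correlated at −0.0118, 0.00505 and −0.0770, and not every library correlated best with its own number. Deviations from the means of groups of 3 libraries cannot decide whether a culture or day was shared.

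Genes that did not pass the test changed sign in some settings, and the cause was not tested. With library size alone the log2 fold change was 0.029 for Yap1, 0.0294 for Stk4, 0.0164 for Mob1a, 0.0253 for Amotl1, 0.0026 for Dlc1, 0.0264 for Asap1 and 0.0563 for Tgfb2. Tgfb2 also stood at 0.0119 with upper quartile factors, 0.0019 with a filter at 5 CPM and 0.0107 in voom. With the GC and length offset the value was −0.0337 for Lats1, −0.0163 for Stk3, −0.0415 for Mob1b and −0.0398 for Dock5. With the block and that offset it was 0.0072 for Tead3, −0.0343 for Lats1, −0.012 for Stk3, −0.0462 for Mob1b and −0.043 for Dock5. Across fits without 1 library Amotl2 ranged from −0.015 to 0.1214, Asap1 from −0.0682 to 0.0048, Dock5 from −0.0065 to 0.0445 and Tgfb2 from −0.0961 to 0.0808. Precision was lowest for the least abundant members, with an SE of 0.121 for Ccn2 and 0.0947 for Tead3.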
